A study of Mus musculus with 8 samples.

Results

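The splenic B-1a cells of mice lacking CTLA-4 on B cells were sorted into a fraction with high surface IgM (IgMhi) and a fraction without it (IgMneg), and the RNA of the 2 fractions is compared here across all genes. The comparison holds 5 of the 8 RNA-seq libraries of the study: 3 IgMneg libraries (CKO#1, CKO#2 and CKO#3) and 2 IgMhi libraries (CKO#2 and CKO#3). Its genes are those with 10 or more normalized counts in 2 or more of these 5 libraries, 10449 of the 10783 genes in the table.

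The CKO mice were Ctla4 fl/fl with a B-cell-specific Cre allele in the heterozygous state, on a BALB/c background and 2 to 3 months old. Ctla4 was thereby deleted in the B lineage, while T cells carried the floxed gene intact. The remaining 3 libraries were IgMhi B-1a cells of Ctla4 +/+ mice. These carry the same Cre allele, and for some genes their values are given below as a background level. B-cell-enriched splenocytes were sorted as IgMhi IgDlo/neg CD21lo/neg CD43+ CD5+ for IgMhi, and for IgMneg as CD5+ CD43+ cells lacking IgM and IgD. Neither the sex of the mice nor any pooling of animals is given in the sources used here. Unless another fit is named, p-values measure the spread between libraries of a group, taken over all 8 libraries and shared in part across genes.

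B-1a cells arise mainly before birth, renew themselves in the adult, and carry B-cell receptors (BCR) that often bind self molecules. In the BCR, the immunoglobulin is held at the surface by CD79A and CD79B, and its engagement is relayed by Syk, Btk and adaptors such as Grb2 to calcium, NFAT and Ras pathways. B cells internalize the receptor with bound antigen and process that antigen for presentation to T cells. RUNX proteins are DNA-binding factors that act with the partner CBFβ and with corepressors such as CBFA2T3 and TLE3, and they set programs in several blood lineages.

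The libraries held 5279044 to 9639495 reads in genes in the CKO mice and 1404660 to 10289686 in the controls. The ribosomal precursor Rn45s took 7.53 to 11.6% of the reads in the CKO libraries and 17.3, 25.1 and 4.62% in the controls. B-cell markers were abundant in every CKO library, with a summed level over 12 genes of 36778 to 42265 normalized counts. Each run of values below gives IgMhi as CKO#2 and CKO#3 and IgMneg as CKO#1, CKO#2 and CKO#3, in this order. The IgMneg library CKO#3 stood apart: its log2 values correlated with the other IgMneg libraries at r = 0.939 and 0.938, against 0.970 between those, and it scored 52.2 on the first principal component where the other IgMneg libraries scored 3.3 and 1 and the IgMhi libraries -28.1 and -28.3. It also held erythroid markers at a summed 283.9 normalized counts (2.91 to 19.0 in the other CKO libraries) and neutrophil markers at 57.6 (0 to 22.2). The 2 CKO#2 libraries were high for Xist, the RNA of X inactivation, at 5413 and 3584, and low for Y-linked Ddx3y at 2.26 and 0. The 2 CKO#3 libraries were the reverse, at 3.80 and 10.6 for Xist and 587 and 615 for Ddx3y, and IgMneg CKO#1 was Xist-high at 2604.

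Ctla4, the deleted gene, was 36.2 and 28.5 in IgMhi and 48.5, 73.8 and 33.0 in IgMneg, and 42.2, 43.1 and 76.8 in the controls. Both CKO IgMhi values lay below those of the controls, IgMneg overlapped with either group, and the log2 difference between IgMneg and IgMhi was 0.60 ± 0.40 (SE, adjusted p = 0.38, limma). Reads over the whole gene are summed (mm9 chr1:60943844-60972676), so the count does not check the deletion. Cd5, whose protein defined both sorts, was 178 and 151 in IgMhi and 209, 246 and 155 in IgMneg, a log2 difference of 0.29 ± 0.22 (adjusted p = 0.45, limma). Spn, which encodes the sort marker CD43, was 958 and 1103 in IgMhi and 2570, 1309 and 1875 in IgMneg, without overlap, a log2 difference of 0.85 ± 0.22 (adjusted p = 0.0268, limma). CD43 was a gate in both sorts, so the level was measured within cells already selected for it. The immunoglobulin heavy chain genes are not analysed here.

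In all, 812 genes passed an adjusted p of 0.05, with 193 higher and 619 lower in IgMneg than in IgMhi. Among all genes tested this is 7.77% called, 1.85% risen and 5.92% fallen, which is the background for the counts below that come from this fit. At unadjusted p-values under 0.05 (limma), 1106 of the 10449 genes were higher and 1465 lower, the background for the unadjusted counts below. For each of the 812, the IgMneg libraries did not overlap with the IgMhi libraries, so the difference also had the same sign in CKO#2 and in CKO#3. The calls were made on these same libraries, so this is a description and no further test. Among all 10449 genes, 2141 were higher and 2299 lower without overlap, and 7501 had the same sign in both numbers. Deviations of the 2 sorts from their group means correlated at r = 0.27 for CKO#2 and 0.21 for CKO#3. With only 2 IgMhi libraries these values are not independent of each other. Xist and Ddx3y matched within each number, but the labels do not say that a number is the same mouse in both sorts. The blocked fit took the number as a term and rests on CKO#2 and CKO#3, because IgMneg CKO#1 has no partner. With 2 pairs, its p-values rest mostly on a spread pooled across genes of like level. In it 2486 genes passed, 23.8% of those tested, with 1117 higher (10.7%) and 1369 lower (13.1%), the background for its counts below. Over all genes edgeR gave 299 higher and 817 lower, and DESeq2 457 and 871. Of the 812 genes, 811 also passed in the blocked fit. Beside the 193 against 619, the split was 12 against 377 when libraries were scaled to equal totals and 225 against 261 after a trend in exon length and GC content was removed. The count was 276 without IgMhi CKO#2, 40 without IgMhi CKO#3 and 523 without IgMneg CKO#3, and the number risen was 108 without IgMneg CKO#2. Without IgMhi CKO#3, no gene list below had more than 3 called members.

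The largest increases among genes with a mean of 50 or more counts in the higher group were those of Dntt, Cd3g, Slpi, Folr4, Ms4a6c and Cenpv, and the largest decreases those of 4931406H21Rik, Runx3, Prr12, Acsf2, Ubqln2 and Trps1. Of the 24 genes with the largest changes, 12 in each direction, 17 passed without IgMneg CKO#3, 11 without IgMhi CKO#2 and 5 without IgMhi CKO#3, among the last Cd3g, Folr4, Ms4a6c and Cbfa2t3. Cd3g, which encodes the CD3γ chain of the T-cell receptor complex, was 45.3 and 53.2 in IgMhi and 184, 221 and 230 in IgMneg. The lowest IgMneg library was above the highest IgMhi library, and above the control libraries at 73.4, 95.8 and 63.1. The log2 difference was 2.08 ± 0.25 (SE, adjusted p = 0.000395, limma), with 2.26 within CKO#2 and 2.09 within CKO#3, and the call held without each CKO library in turn. Folr4, a folate receptor family member now named Izumo1r and known on regulatory T cells and on the egg, was 181 and 290 in IgMhi and 610, 810 and 802 in IgMneg. It did not overlap, with a log2 difference of 1.68 ± 0.22 (adjusted p = 0.000694, limma), and the controls at 178, 254 and 196 lay with IgMhi. Lck, the Src-family kinase of T cells that B-1a cells also carry, was 318 and 456 in IgMhi, 707, 642 and 801 in IgMneg and 297 to 356 in the controls, a log2 difference of 0.90 ± 0.18 (adjusted p = 0.00692, limma; 0.12 without IgMhi CKO#2).

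The T-cell marker list had 7 of its 20 genes in the table, and Cd3g, Folr4 and Lck were the 3 that rose. The other members were Cd2, the receptor of CD48, at 1290 and 1250 in IgMhi and 1186, 1346 and 1118 in IgMneg, and Cd247, the CD3ζ chain, at 24.9 and 29.1 in IgMhi and 20.4, 17.5 and 19.0 in IgMneg. Il7r was 3.02 and 2.53 in IgMhi and 28.1, 8.73 and 16.2 in IgMneg (adjusted p = 0.124, limma), and Tcf7, a T-lineage transcription factor, lay between 5.06 and 11.9 in the 5 libraries. The summed level of the 7 was 1870 and 2085 in IgMhi, 2747 to 3056 in IgMneg and 1724 to 1967 in the controls. Thus 3 members were higher in IgMneg while Cd247 was not, and the part of T-cell RNA in the 3 increases was not tested. In bulk RNA of this kind, a change in the number of cells of a type and a change in RNA per cell cannot be told apart. Myeloid markers summed to 1679 and 1829 in IgMhi and 1511 to 1840 in IgMneg.

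**Figure D1:**
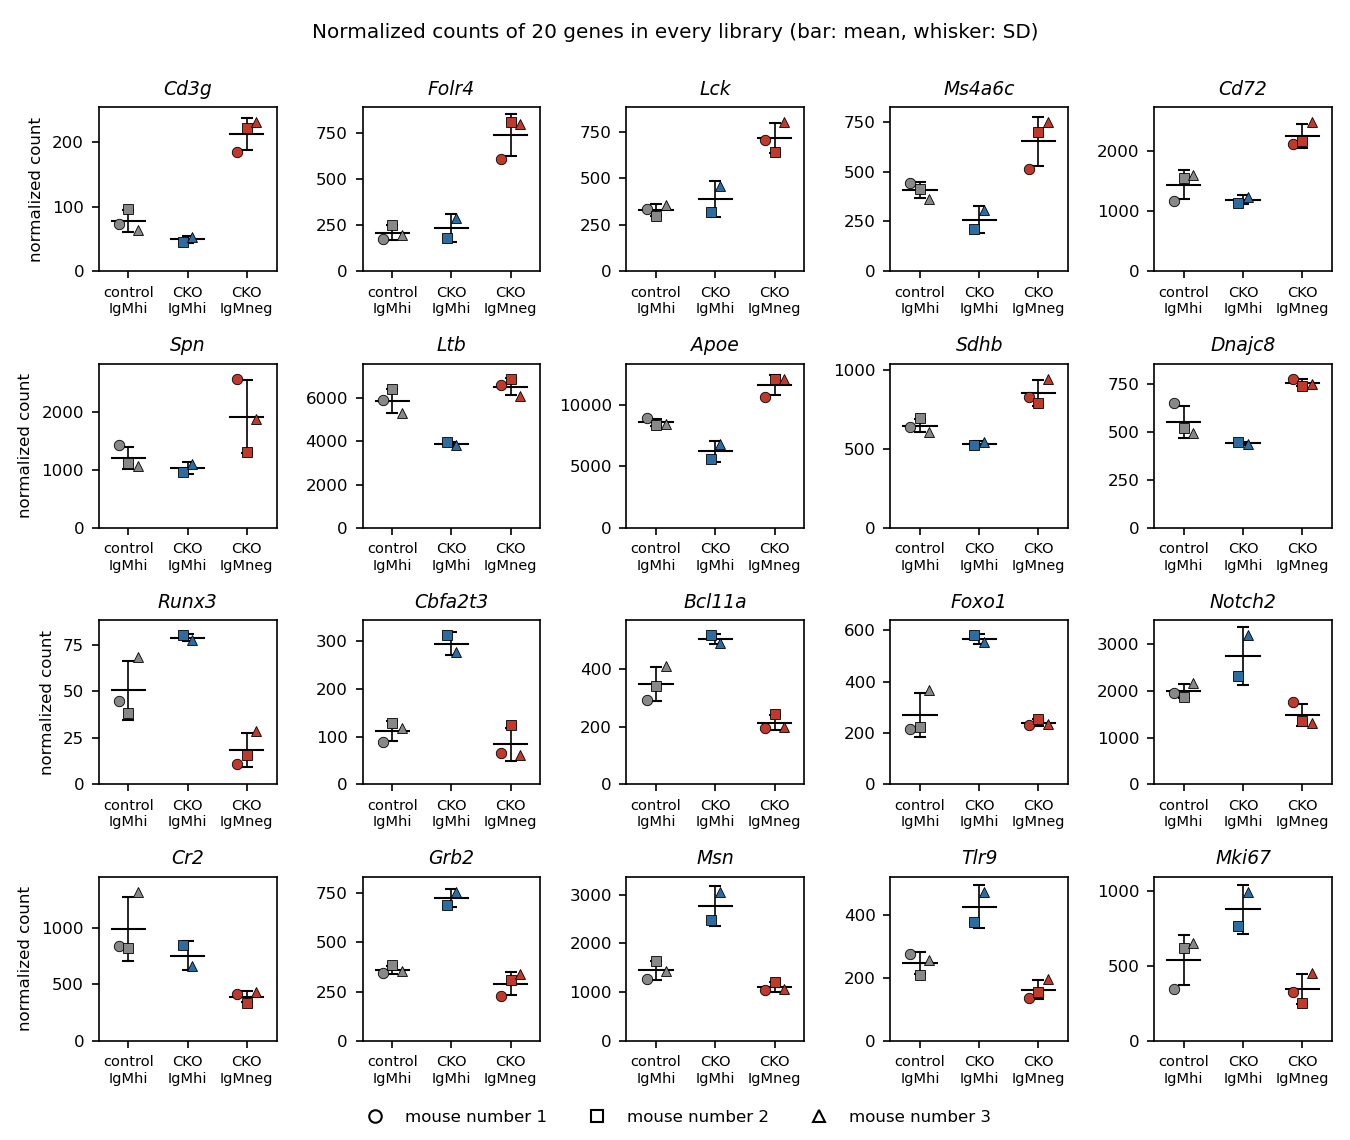
Normalized counts of 20 genes in all 8 libraries, 1 panel per gene, with control IgMhi, CKO IgMhi and CKO IgMneg side by side. Bars are group means, whiskers the SD, and the marker shape gives the number in the label. For Cd3g the 3 IgMneg points sit between 184 and 230 and the 2 CKO IgMhi points at 45.3 and 53.2. For Runx3 the IgMneg points sit between 10.7 and 28.5 and the CKO IgMhi points at 77.2 and 80.0.

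Dntt encodes terminal transferase, which adds untemplated bases at V(D)J joints in B- and T-cell precursors. It had 0 and 1 reads in IgMhi and 217, 6 and 147 reads in IgMneg, and 0, 0 and 2 reads in the controls. In normalized counts this is 0 and 0.633 against 210, 4.76 and 82.1, so all 3 IgMneg libraries were above both IgMhi libraries, but CKO#2 only by a few reads. The adjusted p was 0.0328 (limma) and became 0.111 without IgMneg CKO#3. No fold is given because the IgMhi level rests on 1 read. Among 14 V(D)J recombination genes, Hmgb1, a DNA-bending cofactor of the recombinase, also rose (log2 difference 0.49), and Lig4, the ligase of end joining, fell (log2 difference -1.22), and the list median was 0.27 against 0.01 over all genes tested. Somatic hypermutation and class switching genes moved in both directions: Batf, an AP-1 family factor needed for switching, rose by a log2 difference of 0.78, while Mdc1 (-0.93), Trp53bp1 (-0.81), Rev3l (-0.62) and Supt6 fell, of 25 tested. After the length and GC trend was removed, Dntt stood at an adjusted p of 0.051 and the switching list had no called member (limma, where 3 genes were higher and 4 lower at unadjusted p-values under 0.05 without that step).

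The RUNX factors and their partners were lower in IgMneg, with 4 of the 9 tested genes past the threshold and a median log2 difference of -0.62. Runx3 (mm9 chr4:134676567-134733905) was 80.0 and 77.2 in IgMhi and 10.7, 15.9 and 28.5 in IgMneg. Its groups did not overlap, and the controls at 44.5, 38.3 and 68.4 lay between them. The log2 difference was -2.15 ± 0.43 (SE, adjusted p = 0.00718, limma), with -2.26 within CKO#2 and -1.41 within CKO#3. Cbfa2t3, a corepressor of the ETO family, was 313 and 278 in IgMhi and 66.0, 124 and 61.5 in IgMneg, again without overlap, and 88.9, 129 and 118 in the controls, which lay with IgMneg. Its log2 difference was -1.88 ± 0.29 (adjusted p = 0.0014, limma). Runx1 was 236 and 230 in IgMhi and 135, 116 and 135 in IgMneg, a log2 difference of -0.86 ± 0.20 (adjusted p = 0.018, limma), and Tle3, a Groucho-family corepressor, had a log2 difference of -0.82. Cbfb, the common partner, was 992 and 851 in IgMhi and 1131, 1085 and 1033 in IgMneg, which did not differ beyond the threshold (adjusted p = 0.33, limma). The number that fell was 1 without IgMhi CKO#2 and 1 without IgMhi CKO#3, and 2 (Runx3 and Cbfa2t3) with a median of -0.29 after the length and GC trend was removed.

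The RUNX core motif TGTGGT, searched on both strands in the 250 bases before each RefSeq start site (GRCm38.p6), was present in 14% of 32851 promoters and in 13% of the 8435 tested genes with a promoter in that table, 80.7% of those tested. It was present for 25 of 149 genes that rose (16.8%) and 49 of 493 that fell (9.94%), given as a description. A promoter of Runx3 and of 2 genes that rose, Folr4 and Lck, are shown because each holds the motif, and they were chosen for it. Capitals mark the motif or its reverse complement ACCACA. The Runx3 stretch (chr4:135120395-135120644, plus strand, the first of 2 promoters listed) holds 2 matches, starting 134 and 126 bases before the start site. The Folr4 stretch (chr9:14903768-14904017, minus strand) and the Lck stretch (chr4:129573642-129573891, minus strand, the first of 2) hold 1 match each, 127 and 58 bases before the start.
Runx3: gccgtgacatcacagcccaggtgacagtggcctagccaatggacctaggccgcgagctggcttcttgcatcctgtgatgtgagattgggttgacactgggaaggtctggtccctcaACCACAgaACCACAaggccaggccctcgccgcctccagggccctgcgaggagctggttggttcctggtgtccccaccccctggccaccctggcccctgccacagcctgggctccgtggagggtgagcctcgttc
Folr4: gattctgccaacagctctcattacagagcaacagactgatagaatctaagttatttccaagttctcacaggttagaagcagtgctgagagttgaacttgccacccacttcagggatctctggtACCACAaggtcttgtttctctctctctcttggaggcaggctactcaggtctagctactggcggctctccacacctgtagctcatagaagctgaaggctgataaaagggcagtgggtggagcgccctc
Lck: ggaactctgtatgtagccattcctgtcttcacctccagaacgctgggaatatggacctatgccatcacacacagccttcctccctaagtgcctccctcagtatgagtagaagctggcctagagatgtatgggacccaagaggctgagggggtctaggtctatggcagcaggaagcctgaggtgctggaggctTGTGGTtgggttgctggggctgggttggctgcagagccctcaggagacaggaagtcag
A match in these letters is not evidence of binding.

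B-lineage transcription factors were lower in IgMneg as a list: 14 of 40 fell, the other 26 did not pass, and the median log2 difference was -0.37 against 0.01 over all genes tested. Bcl11a, a zinc finger factor required for B-cell development, was 517 and 491 in IgMhi and 197, 245 and 200 in IgMneg, and the groups were well separated (log2 difference -1.24 ± 0.18, adjusted p = 0.0013, limma). Foxo1, a forkhead factor held out of the nucleus by PI3K and Akt signaling, was 580 and 552 in IgMhi and 230, 255 and 233 in IgMneg. The log2 difference of Foxo1 was -1.24 ± 0.21 (adjusted p = 0.0027, limma), and the controls averaged 269.7 ± 85.6 (SD, n = 3), nearer to IgMneg than to IgMhi. Klf13 (log2 difference -1.21), Zbtb7a (-1.07) and Pou2f2, the octamer factor OCT2 (-1.39), also fell. Pax5, Ebf1, Ikzf1, Ikzf3 and Bach2, which hold B-cell identity, fell by smaller amounts, with log2 differences of -0.56, -0.55, -0.69, -0.76 and -0.81. The remaining members that fell were Myc, Nfatc1, Nfatc2 and Nfatc3. The list had 10 fallen members without IgMneg CKO#3, 8 without IgMhi CKO#2, 2 without IgMhi CKO#3, and 7 after the length and GC trend was removed.

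Genes of BCR signaling were lower in IgMneg at several steps of the pathway, with 14 of 50 past the threshold (24 in the blocked fit, where 2 others rose) and a median log2 difference of -0.29. At the receptor, Cd79a was 3031 and 3127 in IgMhi and 1587, 1544 and 2132 in IgMneg, a log2 difference of -0.83 ± 0.16 (adjusted p = 0.00659, limma). Its partner Cd79b was 10691 and 8858 in IgMhi and 10668, 11184 and 11054 in IgMneg, a log2 difference of 0.17 ± 0.18 (adjusted p = 0.597, limma). The sorts did not overlap for Cd79a and overlapped for Cd79b. Downstream, the kinase Btk had a log2 difference of -0.85 and the adaptor Grb2, which recruits the Ras exchange factor Sos1, was 691 and 757 in IgMhi and 226, 308 and 338 in IgMneg. Grb2 did not overlap, at a log2 difference of -1.33 ± 0.18 (adjusted p = 0.00087, limma), and the controls lay near IgMneg at 342, 383 and 352. Sos1 (-1.06), Rasgrp1 (-0.77), Prkcb (-0.58), the calcium channel Itpr3 (-0.75) and Nfatc1 (-0.97) fell as well, on the log2 scale.

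Negative regulators of the same pathway were also among those that fell: the ubiquitin ligases Cbl (log2 difference -0.88) and Cblb (-0.93) and the Csk-binding adaptor Pag1 (-0.79). Cd72, an inhibitory coreceptor with an ITIM, rose, at 1134 and 1241 in IgMhi, 2114, 2163 and 2479 in IgMneg and a mean of 1441 in the controls. The log2 difference of Cd72 was 0.92 ± 0.16 (adjusted p = 0.0038, limma), and its lowest IgMneg value lay above both IgMhi values. Fcgr2b, the inhibitory Fc receptor of B cells, went the other way, at 343 and 289 in IgMhi and 145.5, 145.3 and 144.2 in IgMneg, a log2 difference of -1.11 ± 0.21 (adjusted p = 0.0058, limma). Ceacam1 fell too (log2 difference -0.93), and the other 21 of the 24 inhibitory coreceptors and Fc receptors did not pass. The BCR list had 9 fallen members without IgMhi CKO#2 and 1 without IgMhi CKO#3, and 10 fallen and 1 risen with a median of -0.09 after the length and GC trend was removed.

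Toll-like receptors and partners had 5 of 24 fallen members (9 in the blocked fit) and a median log2 difference of -0.23. Tlr9, the endosomal sensor of unmethylated CpG DNA, was 378 and 475 in IgMhi and 138, 156 and 196 in IgMneg, with no overlap and a log2 difference of -1.39 ± 0.20 (adjusted p = 0.0013, limma). Tlr7, which senses single-stranded RNA in the same compartment, was 425 and 287 in IgMhi and 175, 222 and 131 in IgMneg, a log2 difference of -1.02 ± 0.23 (adjusted p = 0.014, limma). Cd180 (-0.90), Irak1 (-0.73) and Ticam1 (-0.72) made up the rest on the log2 scale, and Tlr2, at 135 and 144 against 172, 136 and 148, did not differ beyond the threshold (adjusted p = 0.78, limma). The number fallen was 1 without IgMhi CKO#2, 3 without IgMneg CKO#2 and 3 after the length and GC trend was removed.

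Genes that mark mature B-cell subsets fell in part. Of 25 follicular and marginal zone genes, 5 fell (8 in the blocked fit, with 1 risen) and the median log2 difference was -0.30. Notch2, the receptor that marginal zone B cells depend on, was 2314 and 3188 in IgMhi and 1750, 1361 and 1315 in IgMneg, a log2 difference of -0.89 ± 0.17 (adjusted p = 0.0058, limma). Cr2, which encodes CD21, was 846 and 661 in IgMhi and 411, 335 and 430 in IgMneg, a log2 difference of -0.94 ± 0.20 (adjusted p = 0.0112, limma). The controls stood at 838, 819 and 1320, with or above IgMhi. CD21 was gated low in the IgMhi sort. S1pr3, a sphingosine phosphate receptor of marginal zone B cells, had a log2 difference of -0.87. The number fallen was 1 without IgMhi CKO#2 and 2 after the length and GC trend was removed.

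The B-1a identity list had 5 fallen members and 1 risen, Spn, among 31. S100a6, a small calcium-binding protein, was 468 and 536 in IgMhi and 98.9, 164 and 241 in IgMneg, a log2 difference of -1.66 ± 0.31 (adjusted p = 0.0053, limma). The groups did not overlap, and the controls averaged 490, with IgMhi. Csf2rb, the common β chain of the IL-3, IL-5 and GM-CSF receptors, was 801 and 1252 in IgMhi and 540, 563 and 577 in IgMneg. Its log2 difference was -0.84 ± 0.18 (adjusted p = 0.011, limma), and the controls at 667, 522 and 575 lay nearer to IgMneg than to IgMhi. Bhlhe41, a repressor needed for B-1a maintenance, fell by a log2 difference of -0.73, and Vim and Ahnak by -0.68 and -0.82. Msn, which encodes moesin, the linker of cortical actin to the membrane, was 2480 and 3061 in IgMhi and 1035, 1212 and 1067 in IgMneg, at a log2 difference of -1.32 ± 0.16 (adjusted p = 0.000395, limma). Msn had the lowest adjusted p of 8 fallen genes among 49 of cortical actin and adhesion, the others being Wasf2 (-1.37), Actn4 (-1.47), Dock8 (-0.84), Myh9 (-0.91), Wipf1, Plec and Ahnak, while Arpc3, a small subunit of Arp2/3, rose (0.80). In the blocked fit the actin list had 6 risen and 14 fallen members, and its median went from -0.13 to 0.00 after the length and GC trend was removed. The number fallen was 2 in the identity list without IgMhi CKO#2 and 3 in the actin list without IgMhi CKO#3.

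**Figure D2:**
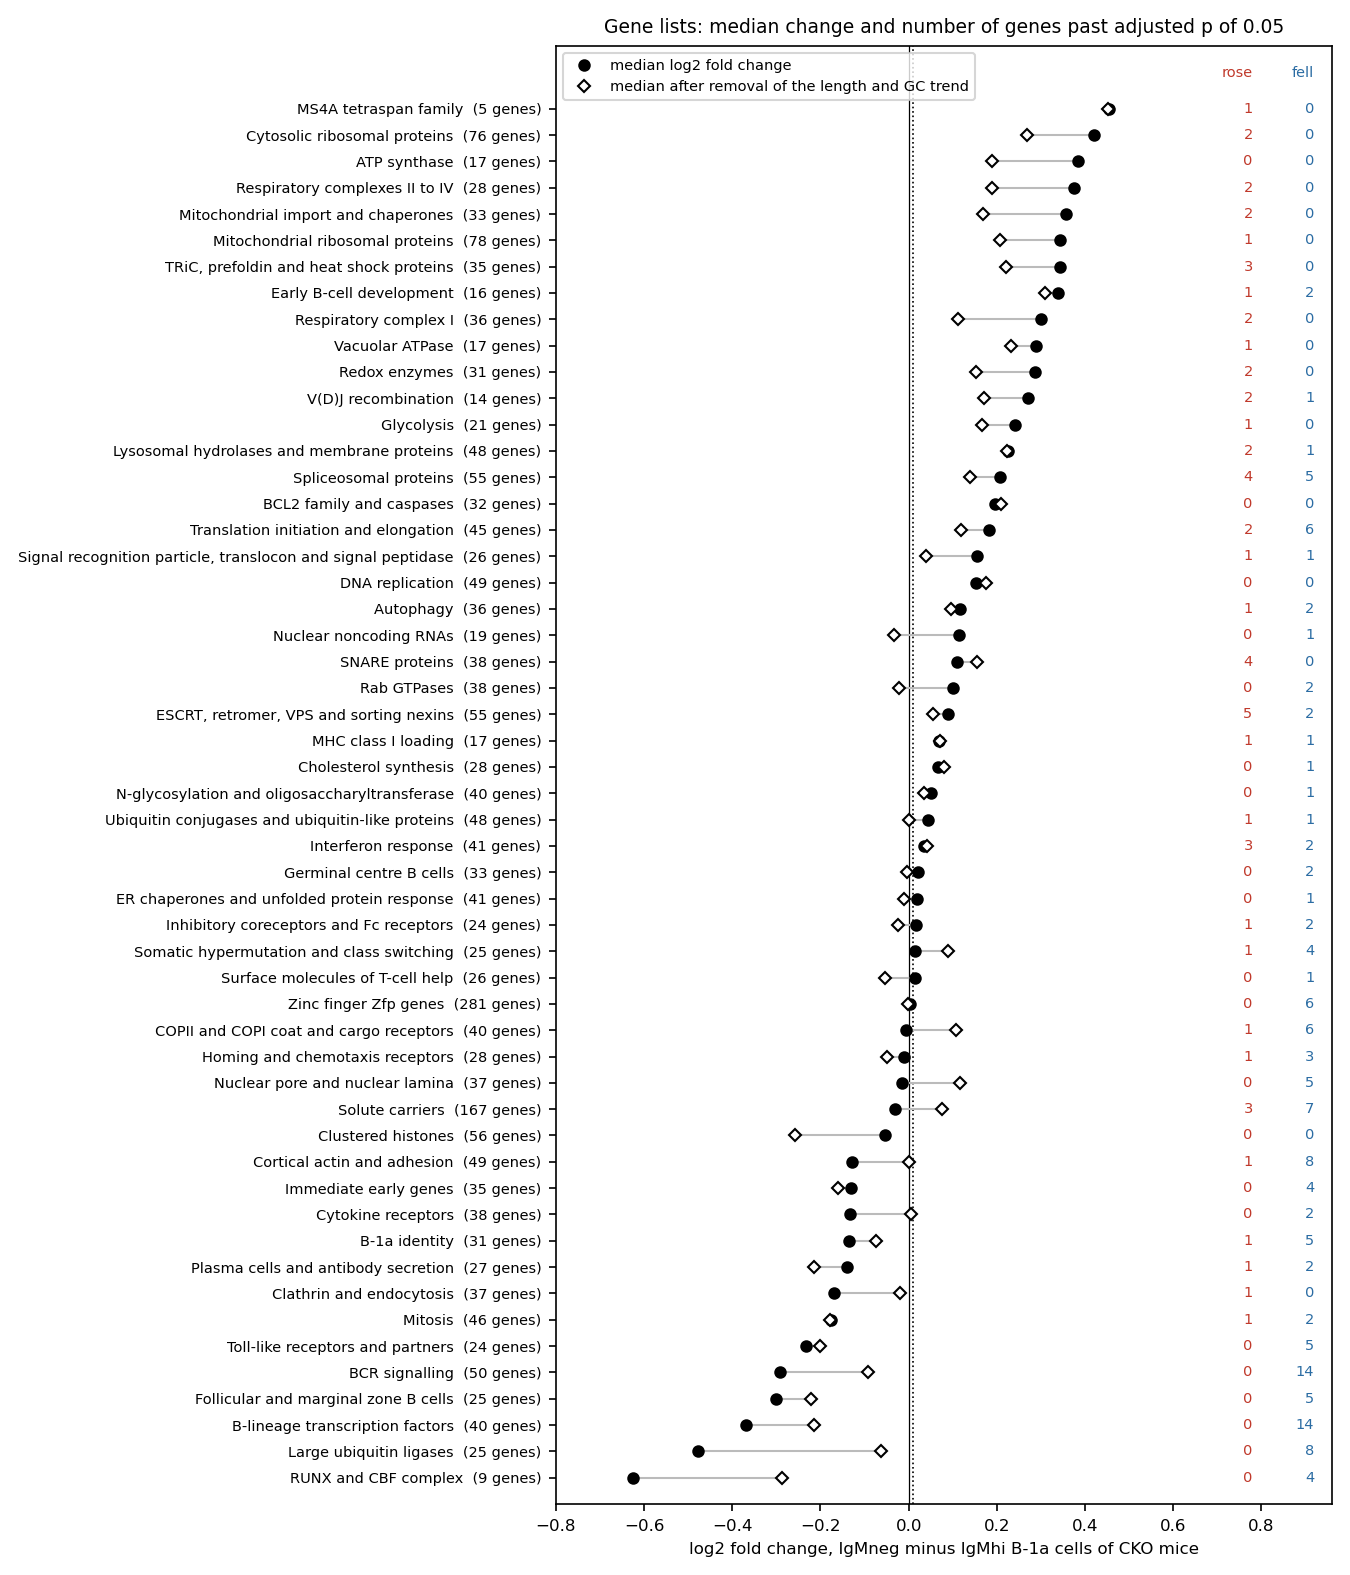
Median log2 difference (IgMneg minus IgMhi) of each gene list, with the number of risen and fallen members beside it. Dots are the medians from limma and open diamonds those after a trend in exon length and GC content was removed; the RUNX and CBF list lies at -0.62, the large ubiquitin ligases at -0.48 and the cytosolic ribosomal proteins at 0.42.

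Genes of the ribosome and of mitochondrial energy supply leaned higher in IgMneg, and the number that passed varied widely with the fit. Of 76 cytosolic ribosomal protein genes, 73 had a positive difference, the median log2 difference was 0.42, and 2 passed, Rpl14 and Rpl7a. The number risen was 6 in edgeR, 24 in DESeq2 and 67 in the blocked fit, the last against 10.7% of all genes. After the length and GC trend was removed it was 1 without the block, at a median of 0.27, and 34 with it, at a median of 0.38. Over all 9671 genes with an annotated length, 225 rose without the block and 815 with it. Rpl14 was 8663 and 8630 in IgMhi and 12192, 15820 and 15037 in IgMneg, a log2 difference of 0.72 ± 0.20 (adjusted p = 0.036, limma). The median deviation of the 76 genes from the mean of the 5 libraries was -0.15 and -0.36 in IgMhi and -0.25, 0.46 and 0.29 in IgMneg on the log2 scale. IgMneg CKO#1 thus sat with the IgMhi libraries, and the IgMneg libraries CKO#2 and CKO#3 stood above their own partners by medians of 0.62 and 0.65. Without IgMneg CKO#1, 30 ribosomal protein genes passed, all higher, while both calls were lost on leaving out any of the other 4 CKO libraries (limma). Over all 10449 genes, 284 rose without IgMneg CKO#1. The ribosomal protein genes are short and many have processed pseudogenes, so reads may be split among copies.

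The mitochondrial lists showed the same layout. Mitochondrial ribosomal proteins had a median log2 difference of 0.34, with 69 of 78 positive, 1 risen gene (Mrps30) and 34 in the blocked fit. Of respiratory complex I, 2 of 36 rose, among them Ndufa9 (20 in the blocked fit), at a median of 0.30. Of complexes II to IV, 2 of 28 rose (19 in the blocked fit), at a median of 0.37: Cox7a2l, an assembly factor of respiratory supercomplexes, and Sdhb, the iron-sulfur subunit of succinate dehydrogenase. Sdhb was 523 and 544 in IgMhi and 833, 789 and 946 in IgMneg, and all 3 IgMneg libraries lay above both IgMhi libraries (log2 difference 0.68 ± 0.15, adjusted p = 0.011, limma). No ATP synthase gene of 17 passed in limma or edgeR, against 3 in DESeq2, 12 in the blocked fit and, at unadjusted p-values under 0.05, 6 higher genes and 1 lower gene, with a median of 0.38. Atp5b, its catalytic subunit, was 4002 and 3926 in IgMhi and 5516, 5157 and 5342 in IgMneg (adjusted p = 0.097, limma; 0.018 blocked). In IgMneg CKO#1 the median deviation was -0.23 for complex I, -0.24 for complexes II to IV and -0.31 for ATP synthase, and 0.21 to 0.40 in the other IgMneg libraries. After the length and GC trend was removed the medians were 0.11 for complex I, 0.19 for complexes II to IV and for ATP synthase, and 0.21 for mitochondrial ribosomal proteins.

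Folding, import and metabolic genes leaned the same way. Hspd1, the mitochondrial HSP60 chaperonin, and Chchd2 rose among 33 import and chaperone genes (16 risen and 1 fallen in the blocked fit), with log2 differences of 0.56 and 0.60. Dnajc8, a J-domain protein of the splicing machinery, was 445 and 435 in IgMhi and 776, 739 and 749 in IgMneg, a log2 difference of 0.78 ± 0.16 (adjusted p = 0.0072, limma). Pfdn5 and Ahsa1, cochaperones of tubulin folding and of HSP90, rose with it, so that 3 of 35 passed (15 risen and 1 fallen in the blocked fit). Tpi1 was the called glycolytic gene of 21, at 650 and 668 in IgMhi and 928, 1008 and 1246 in IgMneg. Of 31 redox genes, the peroxidases Prdx5 and Gpx4 rose, by log2 differences of 0.61 and 0.56. Every call in these lists was lost without IgMhi CKO#2, and likewise without IgMhi CKO#3 (limma).

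**Figure D3:**
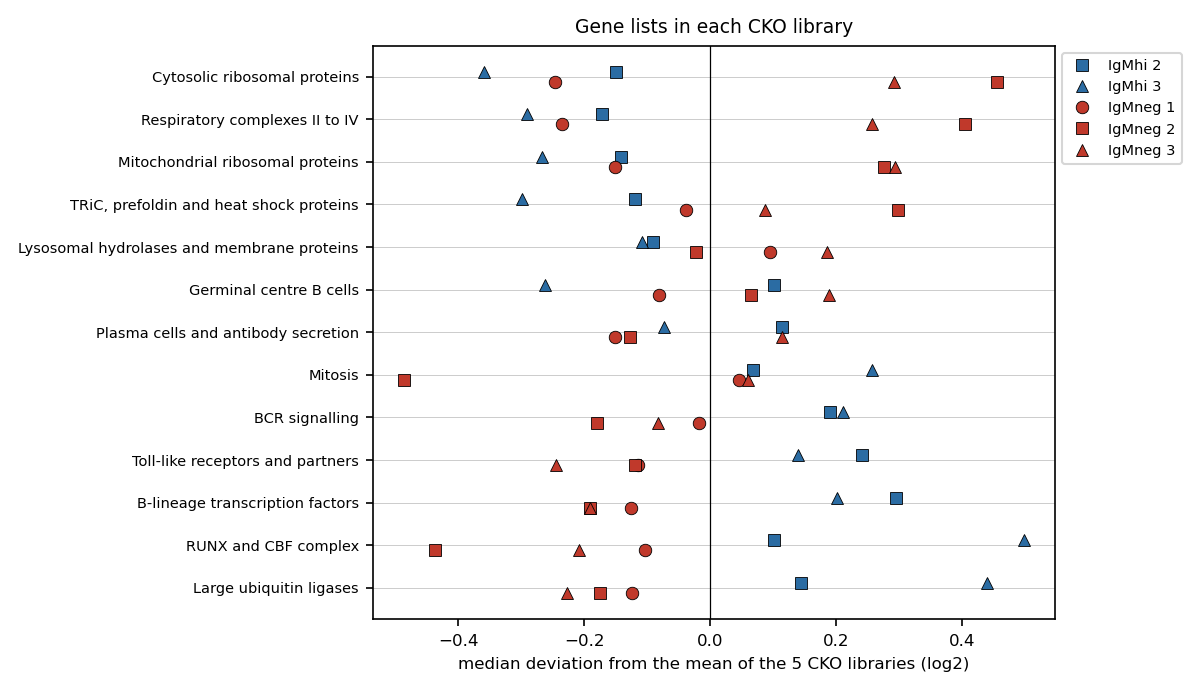
Median deviation of 13 gene lists from the mean of the 5 CKO libraries, in log2 units, 1 point per library. In the ribosomal and respiratory lists IgMneg CKO#1 lies below 0 with the IgMhi libraries and IgMneg CKO#2 and CKO#3 above it, while in the large ubiquitin ligases the IgMneg points, -0.12 to -0.23, and the IgMhi points, 0.14 and 0.44, do not overlap.

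Translation factors moved in both directions. Eef1b2 and Eef1d, subunits of the elongation factor exchange complex, rose by log2 differences of 0.66 and 0.57. Eif4g3 (-0.93), Eif1 (-0.92), Eif5b (-0.77), Eif4g2 (-0.76), Eif3b and Eif3f fell, which makes 2 risen and 6 fallen of 45. Among 55 spliceosomal proteins, Srrm2, a scaffold of nuclear speckles, was 1887 and 2157 in IgMhi and 697, 816 and 810 in IgMneg. This was a log2 difference of -1.38 ± 0.16 (adjusted p = 0.000395, limma), and Srrm1, Son, Prpf8 and Sf3a2 fell with it, while Sf3b5, U2af2, Srsf5 and Bud31 rose. In the blocked fit the spliceosomal list had 18 risen and 6 fallen members and the translation list 12 and 8. After the length and GC trend was removed the spliceosomal list had 3 risen and 2 fallen members and the translation list 1 and 2. Without IgMhi CKO#2, 3 spliceosomal and 2 translation genes were called, all lower. The nuclear pore list had 5 fallen of 37, among them Nup214 (-0.81) and Nup98 (-0.75) on the log2 scale, and no called member after the length and GC trend was removed, where 3 genes were higher and 9 lower at unadjusted p-values under 0.05 before it.

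Large ubiquitin ligases were lower in IgMneg, with 8 of 25 past the threshold (13 in the blocked fit), 16 of 25 without overlap between the sorts and a median log2 difference of -0.48. For comparison, 2299 of the 10449 genes had all IgMneg libraries below both IgMhi libraries. Huwe1, a HECT ligase with many substrates, was 1981 and 3012 in IgMhi and 1288, 1367 and 1393 in IgMneg, a log2 difference of -0.86 ± 0.18 (adjusted p = 0.0092, limma). Ubr2, an N-recognin, was 648 and 770 in IgMhi and 416, 410 and 409 in IgMneg (log2 difference -0.78). Ubr4 (-0.95) and Gm15800, the name in the table for Hectd4 (-1.02), fell with them. These genes have a median exon length of 9719 bases against 3751 over all genes, and after the length and GC trend was removed 1 of them passed and the median was -0.06. Among 48 ubiquitin conjugases and ubiquitin-like proteins, Rbx1, the RING subunit of cullin ligases, rose by a log2 difference of 0.76 and Ube2o fell by -0.93.

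Membrane traffic moved in both directions. Of 38 SNARE proteins, Vamp8, Use1, Stx6 and Vamp5 rose (8 in the blocked fit, with 2 fallen). Vamp8, the SNARE of late endosome and lysosome fusion, was 389 and 411 in IgMhi and 571, 735 and 779 in IgMneg, a log2 difference of 0.78 ± 0.17 (adjusted p = 0.012, limma). Of 55 ESCRT, retromer and sorting nexin genes, 5 rose (Chmp1a, Chmp3, Vps29, Snx1 and Snx5) and 2 fell (Pdcd6ip and Vps13d). Snx5, a sorting nexin that pairs with Snx1, was 3858 and 3370 in IgMhi and 5332, 5843 and 5065 in IgMneg. In the lysosome, Ctsd (cathepsin D) and Npc2 rose by log2 differences of 0.58 and 0.61 and Ids fell by -1.36, of 48, and the vacuolar ATPase had 1 risen gene of 17, Atp6v0e (6 in the blocked fit).

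Of the early secretory genes in the COPII and COPI list, 6 of 40 fell and 1 rose. Gbf1, the exchange factor that loads Arf1 at the Golgi, was 419 and 503 in IgMhi and 198, 214 and 206 in IgMneg, a log2 difference of -1.15 ± 0.17 (adjusted p = 0.0013, limma). Gbf1 had the largest change of the 6, the others being Sec24b (-0.99), Arf4 (-0.71), Sec16a (-0.65), Sec24a and Arf3, and Sar1a was the gene that rose. Pdia3, the disulfide isomerase ERp57 that serves glycoprotein folding and MHC class I loading, was 964 and 1029 in IgMhi and 413, 508 and 467 in IgMneg. In the controls it was 567, 689 and 491, nearer to IgMneg than to IgMhi. Pdia3 had a log2 difference of -1.11 ± 0.17 (adjusted p = 0.0014, limma) and was the called gene of 41 ER chaperones, among which Hspa5, at 4052 and 3182 against 4247, 4711 and 3955, did not differ beyond the threshold. H2-K1, a class I heavy chain, rose by a log2 difference of 0.57, and the other 15 of the 17 class I loading genes did not pass. Mean H2-K1 was 349 in IgMhi, 517 in IgMneg and 530 in the controls. Without IgMhi CKO#2 the COPII and COPI list had 3 called members, all lower, and the SNARE, ESCRT and lysosomal calls were lost. Without IgMneg CKO#3, the SNARE list had 1 risen member and the ESCRT list none risen, against 12 higher at unadjusted p-values under 0.05 with all libraries (limma).

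Genes of antibody secretion, cycling and early activation gave smaller groups. Slpi, a secreted protease inhibitor, was 94.3 and 65.2 in IgMhi and 371, 183 and 493 in IgMneg, a log2 difference of 2.03 ± 0.54 (adjusted p = 0.031, limma, and 0.11 without IgMneg CKO#3). Prdm1, which encodes the plasma cell regulator BLIMP-1, was 211 and 199 in IgMhi and 109, 135 and 111 in IgMneg (log2 difference -0.79), and Zbtb20 fell by -0.69. After the length and GC trend was removed, none of the 25 antibody secretion genes with an annotated length was called. Before that step 4 of the list were higher and 6 lower at unadjusted p-values under 0.05 (limma). Igj, the joining chain of secreted IgM and IgA and the most abundant gene of the plasma cell markers, was 9940 and 6631 in IgMhi and 4243, 3100 and 6647 in IgMneg. The groups overlapped, with an adjusted p of 0.252 in limma and 1.19e-07 in the blocked fit, and within-number log2 differences of -1.68 and 0.00. CKO#2 and CKO#3 thus differed, and the blocked p-value rests on the spread pooled across genes. Mki67, the proliferation marker Ki-67, was 763 and 994 in IgMhi and 326, 253 and 452 in IgMneg, a log2 difference of -1.38 ± 0.26 (adjusted p = 0.0053, limma). Of 46 mitosis genes Cenpf fell as well and Cenpv rose, 12 had a positive difference, and 3 rose and 9 fell in the blocked fit. No gene of 49 in DNA replication was called in limma without the block, against 8 higher at unadjusted p-values under 0.05 and 1 risen in edgeR and in DESeq2, while 6 rose and 1 fell in the blocked fit. Of the immediate early genes, Egr1 (-1.18), Egr3 (-0.94), Zfp36l1 (-0.80) and Myc (-1.21) fell on the log2 scale, 4 of 35. Egr1 was 144 and 125 in IgMhi and 59.2, 58.0 and 59.2 in IgMneg, without overlap, and the 4 calls were lost without IgMhi CKO#2.

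Surface receptors of activation and T-cell help mostly did not pass. Cd86, a ligand of CTLA-4, was 284 and 195 in IgMhi and 187, 253 and 288 in IgMneg, a log2 difference of 0.02 ± 0.22 (adjusted p = 0.97, limma), and Cd80, the other ligand, was 106 and 69.0 against 47.5, 64.3 and 50.3 (log2 difference -0.66 ± 0.31, adjusted p = 0.19). Cd80 did not overlap, whereas Cd86 did. Fas was 18.9 and 12.03 in IgMhi and 15.5, 11.9 and 59.2 in IgMneg, so a single library, CKO#3, was high. Ptprc, Cd38 and Slamf1 had log2 differences of 0.04, 0.00 and 0.10. Cd1d1 had a log2 difference of -0.74 (adjusted p = 0.27, limma; 0.028 blocked), with -0.04 within CKO#2 and -1.63 within CKO#3. Itgal, the αL chain of LFA-1, fell, at 663 and 1030 in IgMhi, 259, 403 and 419 in IgMneg and 369, 388 and 472 in the controls (log2 difference -1.23 ± 0.22, adjusted p = 0.0042, limma). Ccr6 (-0.995) and S1pr3 fell with it among 28 homing receptors, and Itga6, the laminin receptor α6 chain, rose (0.78). Ms4a6c, a tetraspan protein of the CD20 family, was 211 and 306 in IgMhi and 512, 696 and 748 in IgMneg, a log2 difference of 1.34 ± 0.20 (adjusted p = 0.0013, limma). Ms4a1, which encodes CD20, lay between 10574 and 14160 in the 5 libraries with overlap.

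Some abundant genes outside the lists rose as well. They were picked with their values known. Apoe, a lipid carrier, was 5604 and 6814 in IgMhi and 10669, 12103 and 12126 in IgMneg, a log2 difference of 0.91 ± 0.18 (adjusted p = 0.00589, limma). Ltb, lymphotoxin β, was 3956 and 3820 in IgMhi and 6596, 6898 and 6116 in IgMneg and 5299 to 6406 in the controls. Lrmp, an ER membrane protein also called Jaw1, was 1295 and 1365 in IgMhi and 2324, 2265 and 2293 in IgMneg. In all 3 genes the sorts were well apart. Without IgMhi CKO#2 their adjusted p-values were 0.098, 0.076 and 0.042, and without IgMhi CKO#3 0.061, 0.15 and 0.061.

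**Figure D4:**
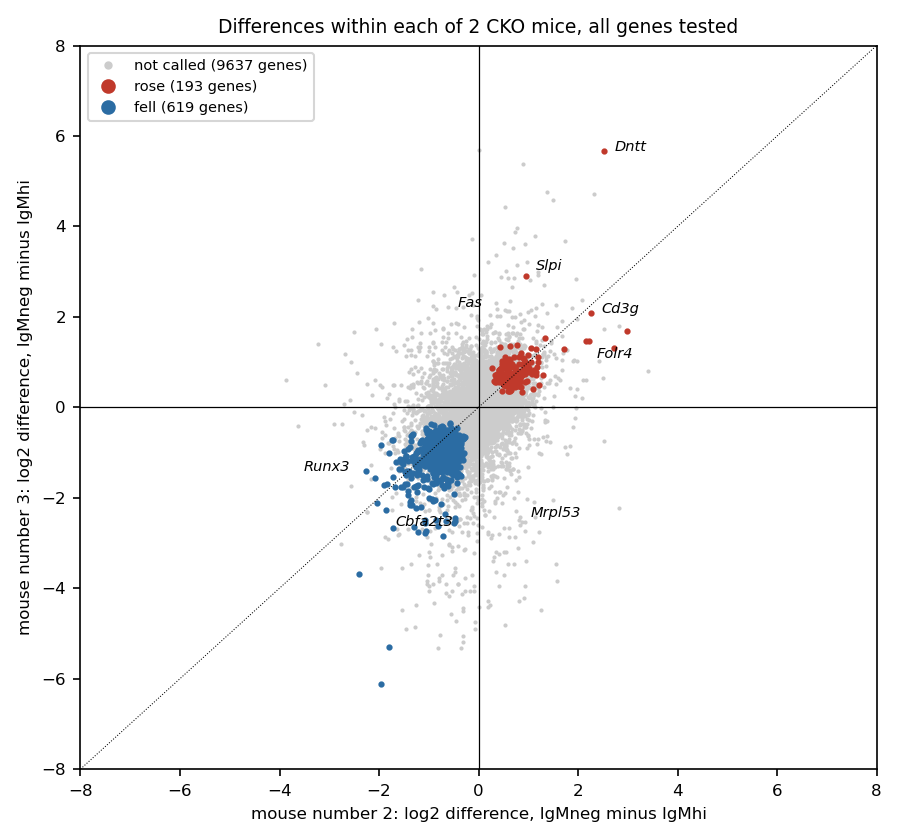
Log2 difference (IgMneg minus IgMhi) within CKO#2 on the horizontal axis and within CKO#3 on the vertical axis, 1 point per gene, with risen and fallen genes colored. Most points (7501 of 10449) lie in the quadrants of equal sign, and the vertical spread (SD 0.82) exceeds the horizontal (SD 0.55).

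Within number, the difference had the same sign in CKO#2 and CKO#3 for 7501 of 10449 genes (71.8%), and the 2 differences correlated at r = 0.44 across genes, which are not independent replicates. CKO#3 differed more: 1510 genes had a log2 difference of 1 or more in either direction within CKO#3 and 662 within CKO#2, where IgMneg CKO#3 is the library that stood apart. Both numbers exceeded 1 for 78 genes higher and 190 genes lower in IgMneg. For 41 genes both exceeded 1 in opposite directions. Emr1, which encodes the macrophage antigen F4/80, was 79.2 and 66.5 in IgMhi and 83.4, 34.1 and 159 in IgMneg, with -1.19 within CKO#2 and 1.24 within CKO#3. Mrpl53, a mitochondrial ribosomal protein, was 39.2 and 43.7 in IgMhi and 37.8, 70.7 and 7.26 in IgMneg, with 0.83 within CKO#2 and -2.43 within CKO#3, against the direction of its list in CKO#3. Kcnk10, a potassium channel, was 19.6 and 48.1 in IgMhi and 55.3, 54.8 and 27.9 in IgMneg, with 1.44 within CKO#2 and -0.76 within CKO#3. These genes were picked for opposite signs and carry no test.

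The difference between the sorts moved with gene length. Across 9671 genes with an annotated length, the log2 difference and the summed exon length had a Spearman correlation of -0.39, given as a description, and that with GC content was -0.04. Genes that rose had a median exon length of 2322 bases and those that fell 6458.5, against 3751 over all. With the genes in 5 bins of equal size from the shortest to the longest, the median log2 difference was 0.27, 0.14, 0.01, -0.09 and -0.31. The number risen was 70, 55, 36, 18 and 6 in the same order and the number fallen 15, 39, 72, 142 and 302. Within CKO#2 the medians of the shortest and longest bins were 0.33 and -0.26, and within CKO#3 0.38 and -0.40. Short genes such as those of the ribosome and long genes such as Huwe1 and Ubr4 lie at the 2 ends, and the part of length in their differences was tested only by removing the trend. Of the 812 genes, 327 also passed with the trend removed, among them Cd3g, Folr4, Ms4a6c, Cd72, Runx3, Cbfa2t3, Grb2, Foxo1, Bcl11a, Cd79a, Tlr9 and Msn.

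**Figure D5:**
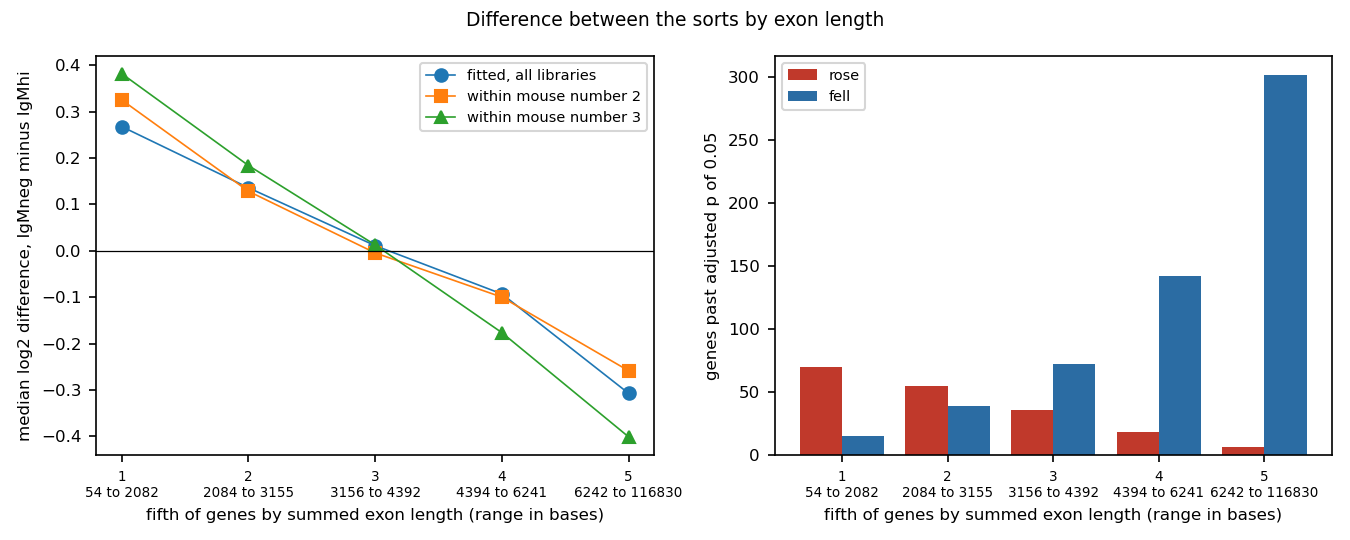
Genes in 5 bins of equal size by summed exon length. The median log2 difference (IgMneg minus IgMhi) of each bin, over all 5 libraries and within each number, goes from 0.27 in the shortest to -0.31 in the longest, and the bars of risen and fallen genes go from 70 and 15 to 6 and 302.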

How the data were processed

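RNA from sorted splenic B-1a cells was depleted of ribosomal RNA and sequenced. Per the submitters' processing notes and the study's methods, reads were aligned to mm9 with TopHat2 (2.0.13), counted per gene with HTSeq (0.6.0) and scaled with DESeq2 under R 3.3.1. The deposited signal is the count per gene divided by a library size factor. Whole reads were recovered for 100% of values within 0.01 read, and the table keeps genes with 61 or more reads over the 8 libraries. Whether counting used strand is not given in the sources used here, so overlapping and antisense genes are uncertain, and 17 genes whose names had turned into dates are not named. Low values, such as those of Dntt, Fas and Ctla4, are limited by the depth of each library.

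The test was limma (3.58.1, with trend) on log2(normalized count + 1), fitted to all 8 libraries in 3 groups, two-sided, with Benjamini-Hochberg adjustment over 10449 genes and a threshold of 0.05. Fold changes on this scale are understated for low genes. The blocked fit used the 5 CKO libraries with the number in the label as a term, and its p-values rest mostly on a spread pooled across genes. The labels do not say that a number is the same mouse in both sorts. The numbers come from the sample labels, and same-numbered libraries deviated together and matched in Xist and Ddx3y. Alternatives were TMM, quantile and total scaling, other pseudocounts and filters, edgeR (4.0.16) and DESeq2 (1.42.0) on the recovered reads, each library left out, and removal of a trend in exon length and GC content. Lengths and mm9 positions came from GENCODE vM1, which matched 92.3% of genes by name. The test was also run on simulated counts drawn independently for each library. They held no effect of number, no length trend and no outlying library, so they do not check the test against those features. Promoters came from RefSeq (GRCm38.p6), matched by symbol.

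Genes were named by rule: the 12 risen and 12 fallen with the largest change among called genes with a mean of 50 or more in the higher group, no overlap and the same direction within both numbers, of each gene list up to 4 called members by p or the 2 most abundant, the genes of the deletion and the sort, and genes of opposite sign within the numbers. Other called members of a list, marker genes and list members given for contrast fall outside that rule and were named after their values were seen. A few genes that the rule names are not reported here. The members and gene lists were chosen with earlier results of these data known.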

Additional observations from a re-analysis of the deposited data

How the results depend on the processing

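Without the trend term limma called 14 genes (2 higher, 12 lower). The count was 389 under total scaling (12, 377), 486 (225, 261) after removal of the length and GC trend, 240 (15, 225) for log2 changes past 1, and 1328 (457, 871) in DESeq2, and edgeR gave 299 higher. With the replicate block by number the count was 2486 (1117, 1369), and 1420 (815, 605) with that block and the length and GC trend removed. When genotype and number together were a random effect over all 8 libraries, the count was 1665 (619, 1046). With a single library left out it ranged from 40 to 946 in all, 4 to 284 higher and 36 to 704 lower, where an arm of 1 library takes its spread from the other groups. Of the other counts, that of genes past 1 within CKO#2 was 436 with a pseudocount of 5. The causes were not tested.

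Apart from genes picked for opposite signs within number, those named that changed sign were not called. Ms4a1 was -0.403 with quantile and -0.0474 with total scaling, -0.172 and -0.203 after trend removal without and with the block, and -0.138 to 0.234 without 1 library. Ms4a4c was -0.0647 and -0.0338 after the same removals, and Abca1 0.0695 after the first. Ptprc was -0.0882, -0.0538 and -0.0501 with quantile scaling, total scaling and the block, and -0.0501 to 0.124 without 1 library. Cd38 was -0.0039 with TMM, -0.0076 and -0.0921 with quantile and total scaling, -0.157 and -0.117 after the 2 removals, -0.0070 in edgeR, and -0.124 to 0.131 without 1 library. Cd86 was -0.0739 with total scaling, -0.0211 after trend removal and -0.248 to 0.291 without 1 library. Fas was -0.140 to 0.971 and Slamf1 -0.260 to 0.313 without 1 library, both lowest without IgMneg CKO#3.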

Other observations

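Further gene groups not described above had few called members. Interferon response genes had 3 risen (Irf1, Ifi27 and Gbp6) and 2 fallen (Trim25 and Gbp7) of 41, and their median deviation overlapped between the sorts, at 0.37 and -0.29 in IgMhi CKO#2 and CKO#3 and 0.01, 0.19 and -0.10 in IgMneg. Gbp6, a guanylate-binding protein, was 55.1 and 44.9 in IgMhi and 102, 116 and 91.1 in IgMneg, and Trim25, the ubiquitin ligase of RIG-I signaling, was 648 and 670 in IgMhi and 364, 425 and 358 in IgMneg. Both genes were without overlap, in opposite directions. Of 28 cholesterol genes, Srebf2, the transcription factor that drives the pathway, fell, at 741 and 1056 in IgMhi and 440, 430 and 457 in IgMneg (log2 difference -0.999 ± 0.18, adjusted p = 0.0039, limma), while the enzymes did not pass. For Srebf2 the controls stood at 520, 440 and 597, nearer to IgMneg than to IgMhi.

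Of 167 solute carriers 3 rose and 7 fell, among them Slc29a3, a lysosomal nucleoside transporter (log2 difference -1.25), Slc7a1, the cationic amino acid transporter (-1.01), and Slc43a2 (-0.95) and Slc38a2 (-0.68), carriers of neutral amino acids. Of 38 cytokine receptors, Csf2rb and Il6ra (-1.17) fell. Of 281 Zfp genes 6 fell, among them Zfp488 (-0.93). Early B-cell development genes had 1 risen (Dntt) and 2 fallen (Ebf1 and Bach2) of 16. Of 40 N-glycosylation genes B4galt1 fell (-0.65), and of 38 Rab GTPases Rab1 (-0.95) and Rab14 (-0.80) did. Autophagy had Gabarap risen and Ulk1 and Pik3r4 fallen of 36, the clathrin list had Clta risen of 37 (2 risen and 7 fallen in the blocked fit), and the protein translocation list had Srp14 risen and Sec63 fallen of 26. Germinal center genes had Mki67 and Myc fallen of 33 (6 risen and 4 fallen in the blocked fit), and nuclear noncoding RNAs Kcnq1ot1 of 19. No member of the BCL2 and caspase list (32 genes) or of the clustered histones (56) was called in limma without the block, against 6 higher in the first and 2 higher and 2 lower in the second at an unadjusted p under 0.05, and 2 and 1 risen in edgeR and in DESeq2. In the blocked fit 8 rose and 1 fell in the first list, and 10 rose and 3 fell in the second.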
